A study of Mus musculus with 13 samples.

Results

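Wild-type mouse epiblast stem cells (EpiSC) were compared with wild-type extraembryonic endoderm (XEN) cells by bulk RNA sequencing. The comparison used 4 of the 13 libraries of the series, 2 of EpiSC and 2 of XEN. It was carried out over all genes of the count table except those whose symbols start with Hist1 to Hist4 and those of small noncoding or ribosomal RNA biotypes, which left 35958 of 38377 genes, 19561 of them protein-coding. Both lines were female with a genotype given as WT, and the labels name the lines only XEN and EpiSC. XEN cells grew in DMEM with fetal bovine serum, whereas EpiSC grew on matrigel in knockout DMEM with FGF2 and Activin, so cell type and medium cannot be told apart. Libraries were made from Trizol-extracted total RNA with NEBNext Ultra or TruSeq stranded kits. The sources used here do not state which library had which kit. They also do not state whether the replicates came from separate cultures, so the p-values reflect the spread among libraries alone, which may be technical. For comparison, 3 libraries of XEN cells deleted for the paternal Xist allele and 2 of EpiSC heterozygous for an Xist deletion (together dXist, untreated) were used. All 9 libraries were fitted together, so the p-values of the wild-type comparison also draw on the spread among the dXist libraries.

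XEN cells are derived from the primitive endoderm of the blastocyst, the tissue that gives rise to the visceral and parietal endoderm of the yolk sacs. Parietal endoderm lays down Reichert's membrane, a thick basement membrane of laminin and type IV collagen, and visceral endoderm takes up and digests maternal nutrients. EpiSC are derived from the epiblast after implantation, the pluripotent tissue that forms the embryo proper, and are kept in this primed state by FGF and Activin signalling.

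Total counts were 30841285 and 35247432 in XEN libraries 1 and 2 and 35026481 and 18053287 in EpiSC libraries 1 and 2. The genes left out took 14.6% of counts in EpiSC library 2 and at most 0.196% in the other 3. Mitochondrial rRNA and Rn7sk, which are counted mainly in libraries made without poly(A) selection, took 13.5% in EpiSC library 2. Mitochondrial mRNAs took 6.98% of the remaining counts in EpiSC library 1 and 1.41% in EpiSC library 2. Levels are given in CPM, counts scaled to a common library size by TMM, and 3 counts in 1 library equal 0.0877 to 0.155 CPM. Across the 19328 genes tested, libraries of the same cell type correlated at a Spearman rho of 0.956 (XEN) and 0.962 (EpiSC), against 0.768 to 0.802 between cell types. These are correlations across genes, which are not independent replicates. Between the XEN libraries 14% of genes differed by more than 2-fold and between the EpiSC libraries 16.1%, against 43.3% to 48.5% between cell types.

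At an adjusted p under 0.05, 3517 genes were higher in EpiSC (18.2% of those tested) and 2822 were lower (14.6%), together 32.8%. All adjusted p-values in this comparison are Benjamini-Hochberg values over these 19328 genes from edgeR's quasi-likelihood test, and "called", "rose" and "fell" refer to EpiSC relative to XEN at that threshold. The 4 libraries did not overlap between cell types for 67.2% of all genes tested. Among the 6339 genes called, 6310 did not overlap, so for a called gene the lack of overlap adds no further support. The differences were large: the median absolute log2 change of called genes was 3.34, 3406 genes changed at least 8-fold, and the smallest called change was 0.76. Among protein-coding genes, 167 lay under 0.1 CPM in both XEN libraries and at 10 CPM or more in both EpiSC libraries. The reverse pattern held for 27. A single count equalled 0.0338 to 0.0342 CPM in XEN, 0.0292 CPM in EpiSC library 1 and 0.0517 CPM in EpiSC library 2. The 0.1 CPM cut was thus not alike across libraries, and its part in these numbers was not tested. The median log2 change over all genes was 0.13. The counts depended on single libraries, with 2154 higher and 1878 lower without XEN library 1, 2127 and 2243 without XEN library 2, 1921 and 1258 without EpiSC library 1, and 2911 and 2125 without EpiSC library 2. In these fits the remaining library is assumed to vary like the other groups. For the gene lists, the count of higher or lower members without a library is given wherever leaving it out moved the count by over 1.5 times. In a bulk library, fewer cells of a type and less RNA per cell cannot be told apart.

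Transcription factors of the primitive endoderm were almost all lower in EpiSC. Of 10 tested factors 9 fell and 1 rose in EpiSC (median log2 change -9.57, or -9.13 at the bounds), against 14.6% and 18.2% of all genes. Medians at the bounds set genes without a count in a cell type at the change that 3 counts over the group would give. Gata6, one of the factors that set up primitive endoderm in the blastocyst, was at 534 and 659.6 CPM in XEN (library 1, then library 2, as in all pairs of values) and at 1.29 and 0.517 CPM in EpiSC (log2 change -9.32, SE 0.73, adjusted p = 5.53e-05). Sox7 (chromosome 14, 63943673 to 63950732 on GRCm38), a SOX factor of endoderm and endothelium, stood at 699.5 and 517 CPM in XEN and 0.438 and 0.723 CPM in EpiSC (log2 change -10.06, SE 0.48, adjusted p = 1.99e-05). For both genes every XEN library stood far above every EpiSC library. Foxa2, a forkhead factor of definitive and visceral endoderm, went from 134 and 139 CPM in XEN to 1.84 and 1.65 CPM in EpiSC (78.1-fold, adjusted p = 2.05e-05). Hnf4a, a nuclear receptor of visceral endoderm and liver, was at 23.7 and 31.4 CPM in XEN and had no count in either EpiSC library, at least 492-fold lower (adjusted p = 0.00248). Cebpa alone rose, at 0.102 and 0 CPM in XEN and 0.497 and 1.34 CPM in EpiSC (ratio 15.8 (95% counting interval 5.04 to 79.3), adjusted p = 0.04). That call was absent without XEN library 2 (adjusted p = 0.12), EpiSC library 1 (0.0676) or EpiSC library 2 (0.148).

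Epiblast transcription factors went the other way, with 17 of 18 tested higher and 1 lower (median 6.93, or 6.70 at the bounds). Pou5f1 (chromosome 17, 35506018 to 35510772), the OCT4 gene, was at 0.718 and 0.811 CPM in XEN and 213 and 276 CPM in EpiSC (log2 change 8.31, SE 0.90, adjusted p = 0.000244). Its usual partner Sox2 was at 0.102 and 0 CPM in XEN, where 3 counts were found over both libraries, and at 89 and 56 CPM in EpiSC, a ratio of 1512 (95% counting interval 517 to 7333) with an adjusted p of 0.000206. Nanog, the homeobox gene of the same circuit, went from 0.376 and 0.676 CPM in XEN to 35.9 and 32.1 CPM in EpiSC (64.7-fold, adjusted p = 0.000172). All 3 core factors were thus below 1 CPM in both XEN libraries and far higher in both EpiSC libraries. Otx2, which marks the primed epiblast and later the forebrain, was at 0.205 and 0.0676 CPM in XEN and 38.3 and 37.9 CPM in EpiSC (279-fold, adjusted p = 0.000111). The chromatin-associated gene Utf1 was at 0.0342 and 0.237 CPM in XEN and 65.9 and 62.7 CPM in EpiSC (475-fold, adjusted p = 0.000153). Sall4 went against the list, at 344 and 523 CPM in XEN and 149 and 162 CPM in EpiSC (log2 change -1.48, SE 0.35, adjusted p = 0.011). Sall4, a zinc finger gene active in both epiblast and primitive endoderm lineages, lost its call without XEN library 2 (adjusted p = 0.0711) or EpiSC library 1 (0.0649).

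**Figure D1:**
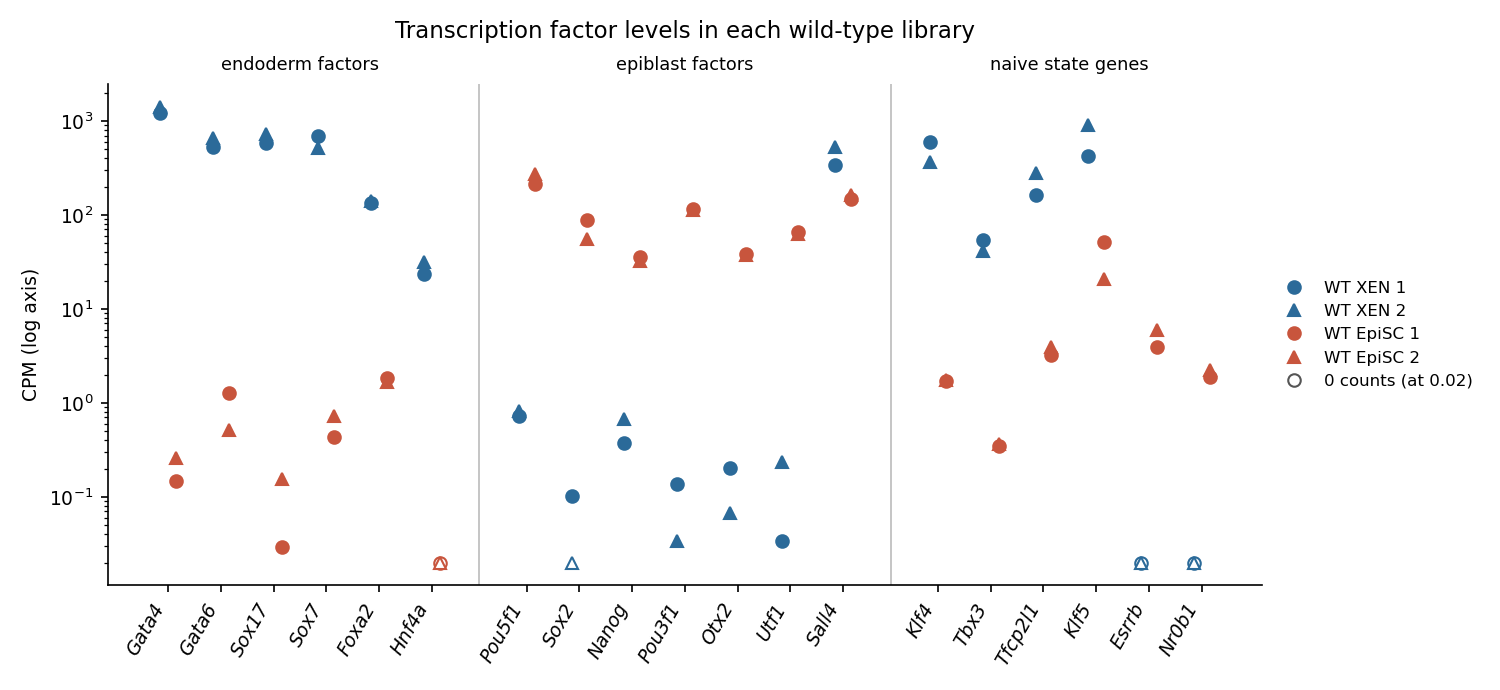
Level of transcription factor genes in each wild-type library, in CPM on a log10 axis, with blue points for XEN, red points for EpiSC, circles and triangles for libraries 1 and 2, and open points for 0 counts. XEN points lie above EpiSC points for the endoderm factors and below them for the epiblast factors other than Sall4, while naive genes fall on both sides.

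Genes of naive pluripotency, the state before implantation that EpiSC have left, did not move as a block. Of 12 tested, 4 rose and 4 fell (median -1.66). Esrrb, an orphan nuclear receptor, had no count in XEN and lay at 3.89 and 5.94 CPM in EpiSC, at least 96.4-fold higher (adjusted p = 0.000788). Nr0b1, another orphan receptor gene, also had no count in XEN and was at 1.87 and 2.22 CPM in EpiSC, at least 40.1-fold higher (adjusted p = 0.00174). The Kruppel-like factor gene Klf4, in contrast, was at 602 and 368 CPM in XEN and 1.7 and 1.76 CPM in EpiSC (log2 change -8.13, SE 0.57, adjusted p = 3.69e-05). Tbx3, Tfcp2l1 and Klf5 were likewise the higher ones in XEN. Tfcp2l1 was at 161 and 282 CPM in XEN and 3.24 and 3.98 CPM in EpiSC (61.4-fold lower, adjusted p = 0.000445), and Klf5 at 422 and 909.6 CPM in XEN and 52.1 and 20.7 CPM in EpiSC (18.3-fold, adjusted p = 0.000639). Tbx3, a T-box repressor, was at 54.1 and 40.9 CPM in XEN and 0.351 and 0.362 CPM in EpiSC (133-fold, adjusted p = 0.000111). These 4 genes named for naive pluripotency were thus more abundant in the endoderm libraries than in EpiSC. None of the 4 overlapped between cell types, as held for 6310 of all 6339 genes called. Among RNA-binding and chromatin genes of pluripotent cells (4 higher and 3 lower of 13, median 0.28), the LIN28 paralogs differed. Lin28b went from 0.0342 and 0.439 CPM in XEN to 246 and 150.1 CPM in EpiSC (836-fold, adjusted p = 6.9e-05), while Lin28a lay at 329 and 737 CPM in XEN and 363 and 320.1 CPM in EpiSC and was not called (adjusted p = 0.427). Lin28 proteins bind and block the let-7 precursor. The splicing regulator Esrp2 fell, from 22.1 and 37.3 CPM in XEN to 2.4 and 2.84 CPM in EpiSC (11.3-fold, adjusted p = 0.000321).

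Genes of the primitive streak and early germ layers were mostly higher in EpiSC, with 8 of 14 called higher and 0 lower (median 4.94, or 3.68 at the bounds). The count of higher genes was 5 without XEN library 2 or EpiSC library 1. Fgf5, an FGF ligand that marks the epiblast after implantation, had no count in XEN and stood at 33.3 and 19.07 CPM in EpiSC, at least 514-fold higher (adjusted p = 0.000321). The neural plate gene Sox1 had no count in XEN and 24 and 15.2 CPM in EpiSC, at least 384-fold higher (adjusted p = 0.000583). Brachyury (T), the streak and notochord factor, was detected with 1 count in XEN and lay at 2.75 and 2.79 CPM in EpiSC (ratio 163 (95% counting interval 28.7 to 6464), adjusted p = 0.00328). Called streak genes could still be low, as T was in both EpiSC libraries. Eomes, a streak and trophoblast factor, was at 0.888 and 1.69 CPM in XEN and 12.9 and 4.86 CPM in EpiSC without a call (adjusted p = 0.119). Its libraries did not overlap, as held for 67.2% of all genes tested.

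Markers of other cell types were read in the same libraries. Of 17 fibroblast and mesenchymal markers 12 rose and 0 fell (median 7.48, or 6.78 at the bounds), and their summed level was 60.5 and 125 CPM in XEN and 1043 and 939 CPM in EpiSC. Col1a1 and Col1a2, the chains of type I collagen, rose together. Col1a1 was at 0.649 and 0.338 CPM in XEN and 388 and 231 CPM in EpiSC (adjusted p = 2.09e-05), and Col1a2 at 0.205 and 0.135 CPM in XEN and 234 and 285 CPM in EpiSC (adjusted p = 2.09e-05). Dcn, which encodes the matrix proteoglycan decorin, was at 0.0342 and 0 CPM in XEN and 8.1 and 8.16 CPM in EpiSC (ratio 478 (95% counting interval 85.3 to 18917), adjusted p = 0.000528). Pdgfrb, a receptor of mesenchymal cells, lay at 17.2 and 17 CPM in XEN and 12.7 and 16.6 CPM in EpiSC and was not called (adjusted p = 0.746). Of 11 neural markers 8 rose and 0 fell (median 7.57, or 4.38 at the bounds), with summed levels of 21 and 39.3 CPM in XEN and 848 and 602 CPM in EpiSC. The higher count was 4 without EpiSC library 1. The neural adhesion gene Ncam1 went from 0.102 and 0.0338 CPM in XEN to 162 and 143 CPM in EpiSC (2238-fold, adjusted p = 2.05e-05), while Pax6, a defining factor of neural tube progenitors, stayed at or below 0.584 CPM in all 4 libraries. Markers without a count in either XEN library included Lum, Twist2 and Fap among the fibroblast markers and Pax3, Dcx and Sox1 among the neural ones, and no marker of these lists was at 0 in both EpiSC libraries. The part of mesenchymal or neural cells in any result here was not tested.

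Of 8 trophoblast markers 3 rose and 1 fell (median -1.30). Tfap2c, a trophoblast and germ cell factor, had no count in XEN and 3.74 and 2.94 CPM in EpiSC, at least 65.6-fold higher (adjusted p = 0.00161). Summed trophoblast marker levels were nevertheless 68.6 and 94.5 CPM in XEN and 12.4 and 10.3 CPM in EpiSC, mostly from Tead4 (64.2 and 82.1 CPM in XEN and 3.89 and 4.18 CPM in EpiSC, 18.1-fold lower, adjusted p = 0.00114). Among germ cell markers 2 of 6 rose (median 2.34), with summed levels of 2.84 and 1.72 CPM in XEN and 25.2 and 24 CPM in EpiSC, and the higher count was 1 without XEN library 1 or 2 or EpiSC library 2. Prdm1, which encodes the BLIMP1 repressor, was at 0.376 and 0.169 CPM in XEN and 19.11 and 12.4 CPM in EpiSC (57.8-fold, adjusted p = 0.00118). Endothelial and blood markers had 1 higher and 2 lower of 8 (median -2.31, or -2.11 at the bounds), the higher count being 0 without EpiSC library 1, and summed levels of 346 and 309 CPM in XEN and 25.9 and 19.8 CPM in EpiSC. The endothelial cadherin gene Cdh5 was at 161 and 138 CPM in XEN and 0.438 and 0.517 CPM in EpiSC (313-fold lower, adjusted p = 0.000106), and the angiopoietin receptor gene Tek at 135 and 127 CPM in XEN and 2.05 and 1.6 CPM in EpiSC (71.7-fold, adjusted p = 3.35e-05). Pecam1, the usual defining endothelial marker, stood at 1.33 and 0.473 CPM in XEN and 0.701 and 0.465 CPM in EpiSC. No count was found in either XEN library for Tfap2c, Gcm1, Hand1, Ptprc, Ddx4 and Mael, nor in either EpiSC library for Elf5, Gata1 and Tyrobp. The zero-count markers in these lists were named after their values were seen, and the part of any of these cell types in the results was not tested.

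Markers of both endoderm branches were mostly higher in XEN, but not all of them. Of 10 parietal markers 8 were lower in EpiSC and 0 higher (median -4.80), and of 12 visceral markers 7 were lower and 2 higher (median -4.78). The 2 visceral markers that rose in EpiSC were Cer1 and Lefty1. Levels of Lefty1 are given with the Nodal pathway below. The Cer1 call was absent without EpiSC library 1 (log2 change 7.32). For visceral markers the lower count was 4 without EpiSC library 1 and the higher count 1 without EpiSC library 1. Snai1, the zinc finger repressor of epithelial genes, was at 186 and 250.3 CPM in XEN and 1.99 and 2.63 CPM in EpiSC (log2 change -6.57, SE 0.37, adjusted p = 2.05e-05). Spink1, a trypsin inhibitor gene of visceral endoderm, was at 106 and 233 CPM in XEN and 0.0584 and 0.0517 CPM in EpiSC (ratio 3034 (95% counting interval 1038 to 14712), adjusted p = 0.000225). Ttr, the thyroid hormone carrier, was at 12.3 and 28.2 CPM in XEN and had no count in EpiSC, at least 362-fold lower (adjusted p = 0.00592, and 0.0557 without EpiSC library 1). Apob, the main lipoprotein scaffold gene, was at 5.47 and 0.0338 CPM in XEN and 0.38 and 0 CPM in EpiSC, with XEN library 2 inside the EpiSC range, and was not called (adjusted p = 0.12, and 0.0327 without XEN library 2).

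In the Nodal and BMP pathway the ligand genes were mostly higher in EpiSC. Nodal and its feedback inhibitors of the Lefty family pattern the epiblast, and Cripto (Tdgf1) is the co-receptor that Nodal needs. Of 13 ligand genes, among which the list counts the Lefty inhibitors, 9 rose and 1 fell (median 6.80, or 5.11 at the bounds). Nodal was detected with 1 count in the XEN libraries and lay at 53.1 and 89.2 CPM in EpiSC (ratio 3893 (95% counting interval 698 to 153812), adjusted p = 6.44e-05). Lefty2 also had 1 count in XEN and was at 269 and 165 CPM in EpiSC (ratio 13613 (95% counting interval 2443 to 537714), adjusted p = 4.78e-05). Lefty1 was at 0.991 and 1.22 CPM in XEN and 58.4 and 195 CPM in EpiSC (115-fold, adjusted p = 0.00252). Like nearly all genes called, these 3 genes did not overlap between cell types. The single member that fell was Bmp2, a BMP ligand of visceral endoderm, from 32.2 and 28.2 CPM in XEN to 3.33 and 1.76 CPM in EpiSC (log2 change -3.56, SE 0.49, adjusted p = 0.000873). Among 12 receptors 3 rose and 4 fell (median 0.62), the lower count being 2 without XEN library 1 or EpiSC library 2. Tdgf1 was at 0 and 0.169 CPM in XEN and 747 and 571 CPM in EpiSC (log2 change 12.85, SE 0.90, adjusted p = 9.55e-05). The BMP receptor gene Bmpr1b had no count in XEN and 7.8 and 4.29 CPM in EpiSC, at least 119-fold higher (adjusted p = 0.000694), whereas the TGF-beta co-receptor Tgfbr3 went from 173 and 174 CPM in XEN to 7.13 and 5.74 CPM in EpiSC (27-fold lower, adjusted p = 0.00197).

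Further inhibitors and targets of the pathway, secreted and intracellular, moved in both directions. Of 15 inhibitor and target genes 2 rose and 6 fell (median -0.68), but the lower count was 3 without XEN library 1 or 2 or EpiSC library 2 and 2 without EpiSC library 1, and the higher count 1 without XEN library 1 or EpiSC library 1. Follistatin (Fst), which binds Activin, was at 1033 and 683 CPM in XEN and 27.4 and 19 CPM in EpiSC (log2 change -5.21, SE 0.48, adjusted p = 0.000105). Noggin (Nog), which binds BMPs, was at 205 and 338 CPM in XEN and 3.74 and 3.05 CPM in EpiSC (log2 change -6.31, SE 0.88, adjusted p = 0.000903). Both extracellular inhibitors were thus far more abundant in XEN, by 37-fold and 79.9-fold. The Smad corepressor gene Skil rose, from 57.9 and 52.4 CPM in XEN to 518 and 309 CPM in EpiSC (7.5-fold, adjusted p = 0.00162), while the inhibitory Smad gene Smad7 lay at 71.4 and 34.4 CPM in XEN and 44.5 and 57.6 CPM in EpiSC and was not called (adjusted p = 0.936).

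Different FGF and other receptor tyrosine kinase genes were high in the 2 cell types. For ligands 5 rose and 4 fell of 12 (median 1.91), the higher count being 3 without XEN library 1 or 2 and 2 without EpiSC library 1, and for receptors 6 rose and 5 fell of 17 (median -0.31), the higher count being 3 without XEN library 1 or EpiSC library 1. Pdgfra, a surface marker of primitive endoderm, was at 614 and 667 CPM in XEN and 2.31 and 1.76 CPM in EpiSC (log2 change -8.29, SE 0.58, adjusted p = 3.94e-05). Kit, the stem cell factor receptor, was at 581 and 566 CPM in XEN and 9.64 and 8.99 CPM in EpiSC (61.6-fold lower, adjusted p = 8.94e-05). Fgfr3 was at 164 and 169.8 CPM in XEN and 0.0584 and 0.672 CPM in EpiSC (456-fold lower, adjusted p = 0.000109). All 3 receptors were abundant in both XEN libraries and low in both EpiSC libraries. In the other direction, the hepatocyte growth factor receptor gene Met was detected with 2 counts in XEN and was at 20.1 and 18.1 CPM in EpiSC (ratio 569 (95% counting interval 157 to 4705), adjusted p = 0.000202). The EGF receptor gene Egfr went from 0.991 and 1.49 CPM in XEN to 31.3 and 28.7 CPM in EpiSC (24.2-fold, adjusted p = 0.00253).

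Among the ligands, Fgf3 was at 30.2 and 29.4 CPM in XEN and 0 and 0.103 CPM in EpiSC (ratio 799 (95% counting interval 221 to 6605), adjusted p = 0.000839), and Fgf10 at 33.1 and 40.9 CPM in XEN and 1.23 and 0.62 CPM in EpiSC (40-fold lower, adjusted p = 0.00101). Vegfa, the main endothelial growth factor, was at 266 and 171 CPM in XEN and 26.6 and 21.9 CPM in EpiSC (9.02-fold lower, adjusted p = 0.000244). These 3 secreted factors were higher in XEN and, like nearly all genes called, did not overlap between cell types. Fgf15, an FGF of the neural plate, had no count in XEN and 4 and 4.24 CPM in EpiSC, at least 80.8-fold higher (adjusted p = 0.00214). Of 13 feedback and target genes of the MAPK pathway 6 rose and 2 fell (median 0.53), but the higher count was 3 without XEN library 1 or EpiSC library 1 or 2 and 2 without XEN library 2, and the lower count 1 without XEN library 1 or 2 or EpiSC library 2 and 0 without EpiSC library 1. The ETS factor gene Etv1 was detected with 1 count in XEN and stood at 192 and 84.2 CPM in EpiSC (ratio 8998 (95% counting interval 1614 to 355439), adjusted p = 3.35e-05). Dusp6, the ERK phosphatase, rose from 19.4 and 5.54 CPM in XEN to 426 and 526 CPM in EpiSC (38.1-fold, adjusted p = 0.000285), and Spry2, a feedback inhibitor of receptor tyrosine kinases, lay at 96.8 and 109 CPM in XEN and 77.2 and 88.5 CPM in EpiSC without a call (adjusted p = 0.394).

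In the Wnt pathway 10 of 27 genes rose and 5 fell (median 1.53), the higher count being 6 without XEN library 1, and the lower count 3 without EpiSC library 1. Wnt8a was at 0.102 and 0.135 CPM in XEN and 33 and 44.3 CPM in EpiSC (325-fold, adjusted p = 7.4e-05), and the secreted Wnt antagonist Sfrp1 at 0.786 and 0.169 CPM in XEN and 58.9 and 35.2 CPM in EpiSC (98.6-fold, adjusted p = 0.000377). Lef1, one of the TCF/LEF factors through which beta-catenin acts, went from 0.205 and 0 CPM in XEN to 77 and 62.5 CPM in EpiSC (680.0-fold, adjusted p = 0.000454). Another factor of that family changed in the opposite direction: Tcf7l2 went from 422 and 367 CPM in XEN to 53.8 and 18.8 CPM in EpiSC (10.9-fold lower, adjusted p = 0.00133). Wnt7b was a XEN ligand, at 51.8 and 125 CPM in XEN and 0.701 and 1.34 CPM in EpiSC (86.5-fold lower, adjusted p = 0.000114). Notch and Hippo genes were divided evenly (4 higher and 4 lower of 20, median 0.05, and 1 without XEN library 1 or EpiSC library 2 for the higher ones). Retinoid genes had 5 higher and 3 lower of 16 (median 0.70), the higher count being 3 without XEN library 1 and 2 without XEN library 2 or EpiSC library 1 or 2. Stra6, the receptor that takes up retinol from its carrier, was at 86 and 158 CPM in XEN and 0.584 and 0.258 CPM in EpiSC (289-fold lower, adjusted p = 0.00236). Cyp26a1, which degrades retinoic acid, was at 98 and 425 CPM in XEN and 4.59 and 4.34 CPM in EpiSC (58.6-fold lower, adjusted p = 0.00112). The gap between the XEN libraries was wide.

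Basement membrane genes took a large share of the XEN messages. The 6 genes Lama1, Lamb1, Lamc1, Col4a1, Col4a2 and Sparc took 8.80% and 11.4% of scaled counts of the genes kept in XEN libraries 1 and 2 and 0.209% and 0.253% in EpiSC libraries 1 and 2. These 6 were picked after their values were seen, and the shares are a description. Lamb1 and Lamc1 encode the laminin beta and gamma chains that pair with the Lama1 alpha chain. Lamb1 was at 13064 and 19159 CPM in XEN and 556 and 472 CPM in EpiSC (log2 change -4.97, SE 0.55, adjusted p = 0.000272), and Lamc1 at 14321 and 25469 CPM in XEN and 578 and 422 CPM in EpiSC (log2 change -5.31, SE 0.51, adjusted p = 0.000134). Sparc, a collagen-binding glycoprotein, was at 15592 and 16578 CPM in XEN and 668 and 742 CPM in EpiSC (log2 change -4.51, SE 0.49, adjusted p = 0.000244). Both laminin genes were higher in XEN library 2 than in library 1. Of 24 tested members 12 fell and 8 rose (median -1.47), the higher count being 5 without XEN library 1 and 3 without XEN library 2 or EpiSC library 1. Lama5, another laminin alpha chain, lay at 279 and 506 CPM in XEN and 153 and 358 CPM in EpiSC, with overlapping libraries, and was not called (adjusted p = 0.33).

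Type IV collagen chains are made from gene pairs that lie head to head, and the pairs were high in opposite cell types. Col4a1 (chromosome 8, 11198423 to 11312826) was at 21762 and 28466 CPM in XEN and 183 and 244 CPM in EpiSC (log2 change -6.88, SE 0.54, adjusted p = 5.6e-05), and its neighbour Col4a2 at 12795 and 14932 CPM in XEN and 141 and 126 CPM in EpiSC (log2 change -6.70, SE 0.49, adjusted p = 4.86e-05). On the X chromosome, Col4a5 (chromosome X, 141475385 to 141689234) was detected with 2 counts in XEN and was at 58.1 and 71 CPM in EpiSC (ratio 1848 (95% counting interval 511 to 15263), adjusted p = 5.39e-05). Its neighbour Col4a6 had no count in XEN and 15.5 and 21.6 CPM in EpiSC, at least 364-fold higher (adjusted p = 0.000159). The chains of each pair thus moved together, the first pair down and the second up, while Col4a4 stayed at or below 1.26 CPM in all libraries. Per kb of exon, the mean Col4a1 level in EpiSC (28.6 CPM per kb) was still above that of Col4a5 (9.61 CPM per kb), and in XEN the Col4a1 level was 3365 CPM per kb.

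The start sites of Col4a1 and Col4a2 lie 21 bases apart and those of Col4a5 and Col4a6 1343 bases apart in RefSeq on GRCm38.p6. The promoter windows, 250 bases before to 50 bases after each start, are shown because the members of each pair moved together and the pairs differ in base composition. Capitals mark CG dinucleotides, read 5′ to 3′ on the strand of the gene.
Col4a1 (chr8:11312777-11313076, minus strand): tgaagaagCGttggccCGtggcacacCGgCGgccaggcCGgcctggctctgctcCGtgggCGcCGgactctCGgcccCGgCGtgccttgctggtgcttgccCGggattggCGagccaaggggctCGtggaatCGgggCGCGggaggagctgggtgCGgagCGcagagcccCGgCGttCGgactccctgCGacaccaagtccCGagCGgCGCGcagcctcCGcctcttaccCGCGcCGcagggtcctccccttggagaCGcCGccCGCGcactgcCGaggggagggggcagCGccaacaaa
Col4a2 (chr8:11312555-11312854, plus strand): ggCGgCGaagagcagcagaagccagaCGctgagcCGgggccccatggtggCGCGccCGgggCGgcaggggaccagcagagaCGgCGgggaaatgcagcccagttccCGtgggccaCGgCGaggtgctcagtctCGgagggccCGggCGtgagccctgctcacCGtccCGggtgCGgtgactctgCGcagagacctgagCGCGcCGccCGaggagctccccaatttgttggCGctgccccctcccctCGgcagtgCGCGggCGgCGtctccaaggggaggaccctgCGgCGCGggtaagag
Col4a5 (chrX:141475169-141475468, plus strand): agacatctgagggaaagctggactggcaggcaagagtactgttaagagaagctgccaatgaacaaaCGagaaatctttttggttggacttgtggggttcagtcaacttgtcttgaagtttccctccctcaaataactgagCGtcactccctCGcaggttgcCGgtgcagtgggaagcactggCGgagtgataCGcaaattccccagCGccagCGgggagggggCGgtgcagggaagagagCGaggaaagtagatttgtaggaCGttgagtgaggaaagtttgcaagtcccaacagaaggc
Col4a6 (chrX:141474027-141474326, minus strand): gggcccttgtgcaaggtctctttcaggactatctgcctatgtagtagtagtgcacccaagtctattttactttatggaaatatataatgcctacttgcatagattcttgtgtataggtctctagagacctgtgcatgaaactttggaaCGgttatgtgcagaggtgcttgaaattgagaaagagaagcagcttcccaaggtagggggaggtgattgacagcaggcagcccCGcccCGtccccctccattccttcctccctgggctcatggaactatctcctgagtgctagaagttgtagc
The Col4a1 and Col4a2 windows overlap and hold 37 and 33 CG dinucleotides, numbers reached by 5.58% and 8.56% of the 32851 RefSeq mouse promoters. The Col4a5 and Col4a6 windows hold 11 and 3, reached by 41.4% and 76.7%. The median was 7 over all promoters and 19 over promoters of tested genes, with 16 for genes higher in EpiSC, 19 for genes lower and 19 for genes not called. A GATA word (GATAA or else GATAG, with A or T just before it, on either strand) occurred in the Col4a6 window and in none of the other 3. Such a word was found in 29.8% of all promoters, in 19.5% of those of genes higher in EpiSC, 19.7% of those lower and 19.4% of those not called. The octamer ATGCAAAT, the word of POU factors, was found in 1.91%, 1.41% and 1.15% of these 3 classes, and the SOX word AACAAT in 6.45%, 5.26% and 6.07%, on either strand. These shares describe letters in a window and not binding.

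Enzymes that process collagen were lower in EpiSC as well. Of 20 tested 11 fell and 2 rose (median -2.40). The prolyl hydroxylase subunit genes P4ha2 and P4ha1, whose products stabilise the collagen triple helix, both fell. P4ha2 went from 1375 and 1041 CPM in XEN to 29.1 and 25.2 CPM in EpiSC (44.5-fold, adjusted p = 5.29e-05), and P4ha1 from 1163 and 726 CPM in XEN to 84.4 and 81.1 CPM in EpiSC (11.4-fold, adjusted p = 0.00068). The collagen chaperone gene Serpinh1 was at 2465 and 5510 CPM in XEN and 353 and 529.7 CPM in EpiSC (9.04-fold lower, adjusted p = 0.00305), and the lysyl hydroxylase genes Plod3 and Plod1 fell by 9.83-fold and 16.4-fold (adjusted p = 0.000293 and 0.000954). None of these 5 genes overlapped between cell types, as held for 6310 of all 6339 genes called. The members that rose were lysyl oxidases, which cross-link fibrillar collagen and elastin outside the cell. Lox had no count in XEN and 47.8 and 24.6 CPM in EpiSC, at least 710.1-fold higher (adjusted p = 0.000125), and Loxl1 was at 0.0683 and 0 CPM in XEN and 6.49 and 12.9 CPM in EpiSC (ratio 259 (95% counting interval 71.4 to 2147), adjusted p = 0.00186). They moved with the fibrillar collagen genes given above, and the part of mesenchymal cells in this was not tested.

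**Figure D2:**
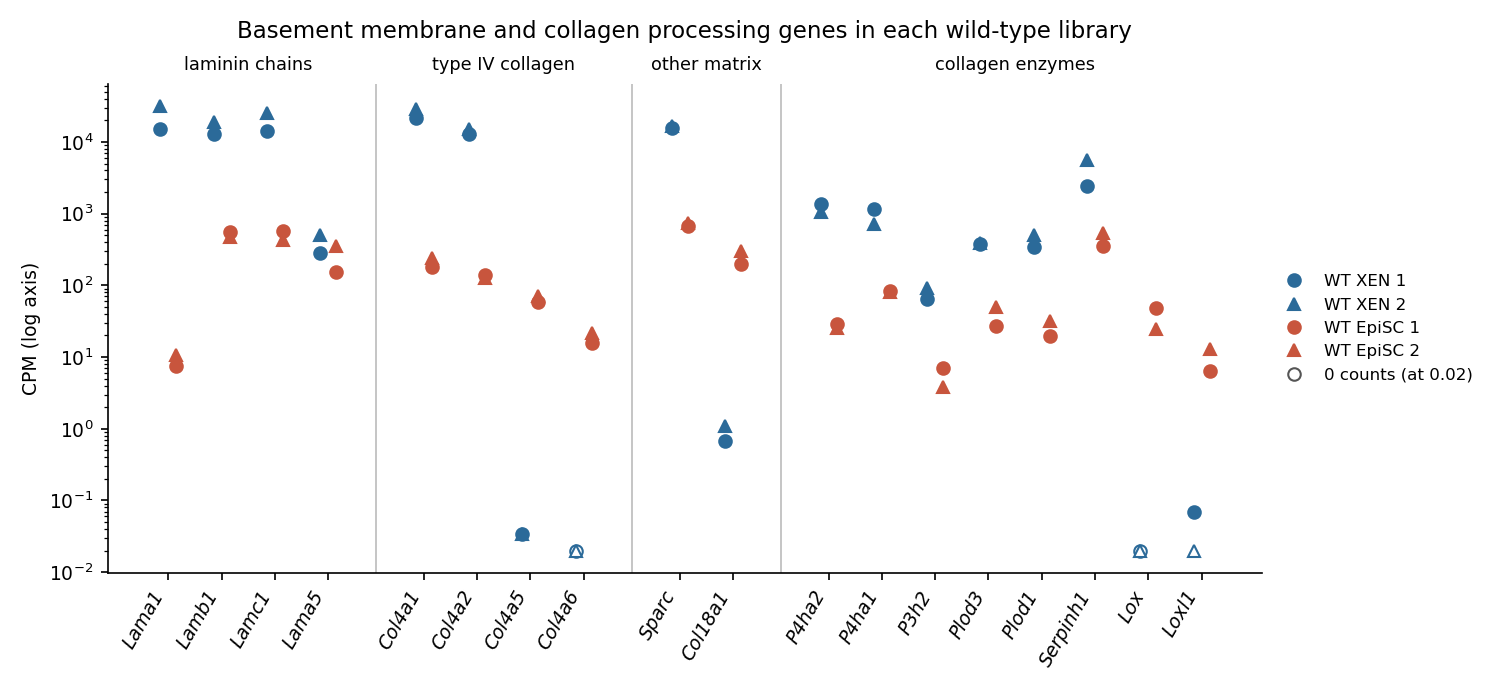
Level of laminin, type IV collagen, matrix and collagen processing genes in each wild-type library, in CPM on a log10 axis, with blue points for XEN, red points for EpiSC, circles and triangles for libraries 1 and 2, and open points for 0 counts. XEN points lie above EpiSC points for the plotted genes other than Lama5, where they overlap, and Col4a5, Col4a6, Col18a1, Lox and Loxl1, where EpiSC is higher.

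Genes for uptake and digestion, the nutritive work of visceral endoderm, were lower in EpiSC. Of 20 uptake and lipoprotein genes 13 fell and 1 rose (median -3.53, or -3.23 at the bounds), the lower count being 4 without EpiSC library 1 and 7 without EpiSC library 2. Cubilin (Cubn), an endocytic receptor, was at 165 and 110.5 CPM in XEN and 2.02 and 1.96 CPM in EpiSC (log2 change -6.11, SE 0.45, adjusted p = 5.08e-05), and its adaptor gene Dab2 at 483 and 799 CPM in XEN and 92.2 and 32.3 CPM in EpiSC (10.3-fold lower, adjusted p = 0.00306). Mttp, which loads lipid on to lipoproteins, was at 124 and 151 CPM in XEN and 9.85 and 9.97 CPM in EpiSC (13.9-fold lower, adjusted p = 0.000436). The transferrin receptor gene Tfrc was the member that rose, from 39.7 and 49 CPM in XEN to 198 and 176 CPM in EpiSC (4.22-fold, adjusted p = 0.00119). Of 22 lysosomal genes 16 fell and 2 rose (median -1.87), the lower count being 10 without XEN library 2 and 8 without EpiSC library 1, and the higher count 1 without XEN library 1 or 2 or EpiSC library 1 or 2. The protease genes Ctsh and Lgmn both fell. Ctsh went from 214 and 230.0 CPM in XEN to 7.54 and 8.16 CPM in EpiSC (28.3-fold, adjusted p = 3.62e-05), and Lgmn from 710.2 and 1117 CPM in XEN to 67.3 and 76.4 CPM in EpiSC (12.7-fold, adjusted p = 0.000228). Hexa went the other way: this subunit of beta-hexosaminidase was at 0.649 and 0.27 CPM in XEN and 46.8 and 59.9 CPM in EpiSC (log2 change 6.84, SE 1.20, adjusted p = 0.00291). The Hexa message was thus scarce in both XEN libraries.

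Haemostasis and protease genes were divided, with 7 higher and 9 lower of 20 (median -0.46). The higher count was 4 without XEN library 1, 3 without XEN library 2 or EpiSC library 2 and 2 without EpiSC library 1, and the lower count 5 without XEN library 1 or EpiSC library 1. Tissue factor (F3), the trigger of the clotting cascade, was at 603 and 473 CPM in XEN and 15.7 and 11.6 CPM in EpiSC (log2 change -5.30, SE 0.43, adjusted p = 6.44e-05). Its inhibitor Tfpi was also a XEN gene, at 532 and 326 CPM in XEN and 6.28 and 2.27 CPM in EpiSC (log2 change -6.63, SE 0.66, adjusted p = 0.00016). The plasminogen activator gene Plat and the urokinase receptor gene Plaur fell by 9.43-fold and 9.44-fold (adjusted p = 0.000114 and 0.00174). The gelatinase gene Mmp2, which degrades type IV collagen, rose from 15.9 and 4.6 CPM in XEN to 135 and 171 CPM in EpiSC (14.9-fold, adjusted p = 0.00156).

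Different adhesion genes were high in the 2 cell types. Of 26 cadherin, junction and keratin genes 8 rose and 4 fell (median 0.46), the higher count being 5 without XEN library 1 or 2 and 4 without EpiSC library 1. N-cadherin (Cdh2) was detected with 1 count in XEN and was at 178 and 90.1 CPM in EpiSC (ratio 8599 (95% counting interval 1543 to 339689), adjusted p = 6.96e-05). P-cadherin (Cdh3) also had 1 count in XEN and was at 19 and 19 CPM in EpiSC (ratio 1118 (95% counting interval 200.3 to 44212), adjusted p = 9.55e-05). The simple epithelial keratin genes Krt8 and Krt18 were higher in XEN. Krt8 was at 571 and 878 CPM in XEN and 23.1 and 35.9 CPM in EpiSC (24.6-fold, adjusted p = 0.000109), and Krt18 at 381 and 590.0 CPM in XEN and 28.3 and 46.5 CPM in EpiSC (13-fold, adjusted p = 0.000377). Vimentin (Vim), the intermediate filament gene of mesenchyme and parietal endoderm, lay at 441 and 1166 CPM in XEN and 495 and 597 CPM in EpiSC, with overlapping libraries (adjusted p = 0.37).

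Of 16 integrin genes 4 rose and 4 fell (median 0.72), the lower count being 2 without EpiSC library 1. The collagen and laminin receptor subunit gene Itga1 went from 0.0683 and 0.101 CPM in XEN to 39.3 and 26.3 CPM in EpiSC (386-fold, adjusted p = 6.9e-05), and Itgb8 from 1 count in XEN to 18.8 and 12.8 CPM (ratio 979.9 (95% counting interval 175 to 38745), adjusted p = 0.000285). The fibronectin receptor subunit gene Itga5 was lower, at 317 and 415 CPM in XEN and 41.3 and 48.2 CPM in EpiSC (8.18-fold, adjusted p = 0.000452). The common beta subunit gene Itgb1 lay at 688 and 563 CPM in XEN and 1196 and 522 CPM in EpiSC and was not called (adjusted p = 0.44). Actin and cytoskeletal genes had 4 higher and 5 lower of 22 (median 0.53), the higher count being 2 without EpiSC library 1, and the lower count 2 without XEN library 2 and 3 without EpiSC library 2. The tropomyosin gene Tpm2 rose from 3.14 and 1.32 CPM in XEN to 144 and 97 CPM in EpiSC (54-fold, adjusted p = 0.000476), and Tagln2, an actin-binding gene, fell from 547 and 662 CPM in XEN to 46.6 and 42.6 CPM in EpiSC (13.6-fold, adjusted p = 0.000413).

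Chromatin regulators changed in both directions. Among 14 DNA methylation writers and erasers 4 rose and 1 fell (median 0.14). The higher count was 2 without XEN library 1 or EpiSC library 1 and 1 without XEN library 2, and the lower count 0 without EpiSC library 1. Tet1, which oxidises 5-methylcytosine, was at 34.4 and 30.1 CPM in XEN and 222 and 168 CPM in EpiSC (log2 change 2.60, SE 0.51, adjusted p = 0.00488). The maintenance methyltransferase gene Dnmt1 lay at 246 and 302 CPM in XEN and 406 and 369.7 CPM in EpiSC and was not called (adjusted p = 0.274). Of 25 Polycomb genes 8 rose and 6 fell (median 0.30), the higher count being 1 without XEN library 1, 3 without XEN library 2 and 4 without EpiSC library 1. Phc1, a subunit of canonical Polycomb repressive complex 1 (PRC1), rose from 66.1 and 46.2 CPM in XEN to 672 and 401 CPM in EpiSC (9.55-fold, adjusted p = 0.000645). Pcgf5, a subunit of a variant PRC1, fell from 224 and 182 CPM in XEN to 19.08 and 12.2 CPM in EpiSC (12.9-fold, adjusted p = 0.000146), as did the chromobox gene Cbx8 (15.2 and 9.33 CPM in XEN, 1.02 and 1.29 CPM in EpiSC, adjusted p = 0.00113). Ezh1 fell from 109.6 and 70.6 CPM in XEN to 22 and 22.5 CPM in EpiSC (4.05-fold, adjusted p = 0.00164), whereas its paralog Ezh2, the main H3K27 methyltransferase of dividing cells, lay at 91 and 116 CPM in XEN and 237 and 73.6 CPM in EpiSC without a call (adjusted p = 0.386).

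None of 16 regulators of X inactivation was called in the main edgeR fit or by DESeq2 (median 0.25). Other edgeR fits called 2 lower with a term for the replicate number, over 9 libraries or the 4 wild-type ones. Without the count filter 1 was called lower. Of the 16 genes 3 had an unadjusted p under 0.05 in the main edgeR fit. Lack of overlap between cell types held for 12, a share near the 67.2% of all genes tested. The higher count was 1 without EpiSC library 2, and the lower count 2 without EpiSC library 1. Xist, the RNA that coats the inactive X, was at 1582 and 1682 CPM in XEN and 844 and 220.1 CPM in EpiSC (log2 change -1.62, SE 0.70, adjusted p = 0.099, and 0.0412 without EpiSC library 1). The EpiSC libraries differed widely from each other, and both lay below the XEN libraries. Tsix, which runs antisense across Xist, was at 0.205 and 0.642 CPM in XEN and 1.37 and 1.08 CPM in EpiSC (adjusted p = 0.3), and reads where these genes overlap cannot be assigned because no source names the strand setting of the counting. Of 12 genes known to escape X inactivation 4 rose and 0 fell (median 0.73), the higher count being 1 without XEN library 1 or 2 or EpiSC library 1. The H3K27 demethylase gene Kdm6a rose from 38.8 and 47.7 CPM in XEN to 158 and 126 CPM in EpiSC (3.27-fold, adjusted p = 0.00483). Of 10 tested X-linked Xlr, Rhox and placental genes 4 fell and 0 rose (median -5.50, or -4.74 at the bounds). Xlr4a was at 34.1 and 17.7 CPM in XEN and had no count in EpiSC, at least 462-fold lower (adjusted p = 6e-05). Members of the Xlr family are near-identical copies, so reads may be divided among them and single members are uncertain.

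Imprinted genes, which are expressed from 1 parental allele, were mainly higher in EpiSC. Of 18 maternally expressed genes 9 rose and 1 fell (median 2.75), the lower count being 0 without XEN library 2 or EpiSC library 1 or 2. Rian, a noncoding RNA of the Dlk1-Meg3 domain, was detected with 2 counts in XEN and was at 863 and 1082 CPM in EpiSC (ratio 27726 (95% counting interval 7675 to 228951), adjusted p = 2.09e-05). Mirg of the same domain had no count in XEN and 57.6 and 153 CPM in EpiSC, at least 2068-fold higher (adjusted p = 0.00062). H19 lay at 7.72 and 12.9 CPM in XEN and 446 and 358 CPM in EpiSC and was not called (adjusted p = 0.0506). Its libraries did not overlap, which held for 67.2% of all genes tested. Of 24 paternally expressed genes 13 rose and 2 fell (median 2.59), the higher count being 8 without XEN library 2 and 7 without EpiSC library 1, and the lower count 1 without XEN library 2 or EpiSC library 1 or 2. The amino acid transporter gene Slc38a4 was at 0.205 and 0.169 CPM in XEN and 262 and 158 CPM in EpiSC (1122-fold, adjusted p = 2.09e-05), and Mest, which encodes an alpha/beta hydrolase, at 2.08 and 0 CPM in XEN and 620.5 and 379.5 CPM in EpiSC (479.7-fold, adjusted p = 0.00112). Sfmbt2, a Polycomb-group gene imprinted in extraembryonic tissues, was one of those that fell, from 204 and 205 CPM in XEN to 28.4 and 19.5 CPM in EpiSC (8.55-fold, adjusted p = 0.000645). These are totals over both alleles.

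Called cell cycle and metabolic genes went in both directions, against 18.2% higher and 14.6% lower of all genes tested. Of 21 G1 cyclin and inhibitor genes 6 rose and 3 fell (median 0.72), the higher count being 2 without XEN library 1 and 3 without EpiSC library 1 or 2, and the lower count 1 without XEN library 2 or EpiSC library 1 or 2. Cyclin D1 (Ccnd1) was at 1.06 and 0.27 CPM in XEN and 186 and 156 CPM in EpiSC (258-fold, adjusted p = 0.000106). Cdk6, which encodes a kinase partner of the D cyclins, was at 0.273 and 1.18 CPM in XEN and 84.8 and 71.5 CPM in EpiSC (107-fold, adjusted p = 0.00062). Cyclin D2 (Ccnd2) lay at 348 and 198 CPM in XEN and 247 and 130.4 CPM in EpiSC, with overlapping libraries (adjusted p = 0.454). XEN libraries therefore held Ccnd2 with little Ccnd1. Glycolysis genes had 2 higher and 4 lower of 24 (median -0.41), the higher count being 1 without XEN library 1 or 2, and the lower count 1 without XEN library 1 or 2 or EpiSC library 2 and 0 without EpiSC library 1. Ldhb, which encodes the heart-type lactate dehydrogenase subunit, rose from 10.3 and 29.6 CPM in XEN to 163 and 181 CPM in EpiSC (8.63-fold, adjusted p = 0.00198), while Gapdh lay at 599 and 1238 CPM in XEN and 1075 and 1529 CPM in EpiSC without a call (adjusted p = 0.38). Sterol synthesis genes had 6 higher and 1 lower of 20 (median 0.60), the higher count being 2 without XEN library 1 or 2 or EpiSC library 1, and the lower count 0 without XEN library 1 or EpiSC library 1 or 2. Idi1, which isomerises isopentenyl diphosphate, rose from 4.61 and 2.97 CPM in XEN to 51.7 and 30.8 CPM in EpiSC (10.9-fold, adjusted p = 0.00314).

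Antigen presentation genes of MHC class I moved in both directions. Of 14 tested 8 rose and 3 fell (median 2.90), the lower count being 1 without XEN library 1 or EpiSC library 1 or 2 and 0 without XEN library 2. The immunoproteasome gene Psmb8 went from 0.205 and 0.0338 CPM in XEN to 5.26 and 11.3 CPM in EpiSC (69.2-fold, adjusted p = 0.00129), and the peptide transporter gene Tap2 from 1.3 and 1.45 CPM in XEN to 15.9 and 25.1 CPM in EpiSC (14.9-fold, adjusted p = 0.00469). The classical heavy chain gene H2-D1 went down, from 108 and 256 CPM in XEN to 35 and 55.6 CPM in EpiSC (4.02-fold, adjusted p = 0.0124). H2-D1 lost its call without XEN library 2 (adjusted p = 0.0963) or EpiSC library 1 (0.0955). The light chain gene B2m lay at 146 and 75.6 CPM in XEN and 127 and 98 CPM in EpiSC (adjusted p = 0.962). Class I heavy chain genes are near-identical copies, so values of single members are uncertain.

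**Figure D3:**
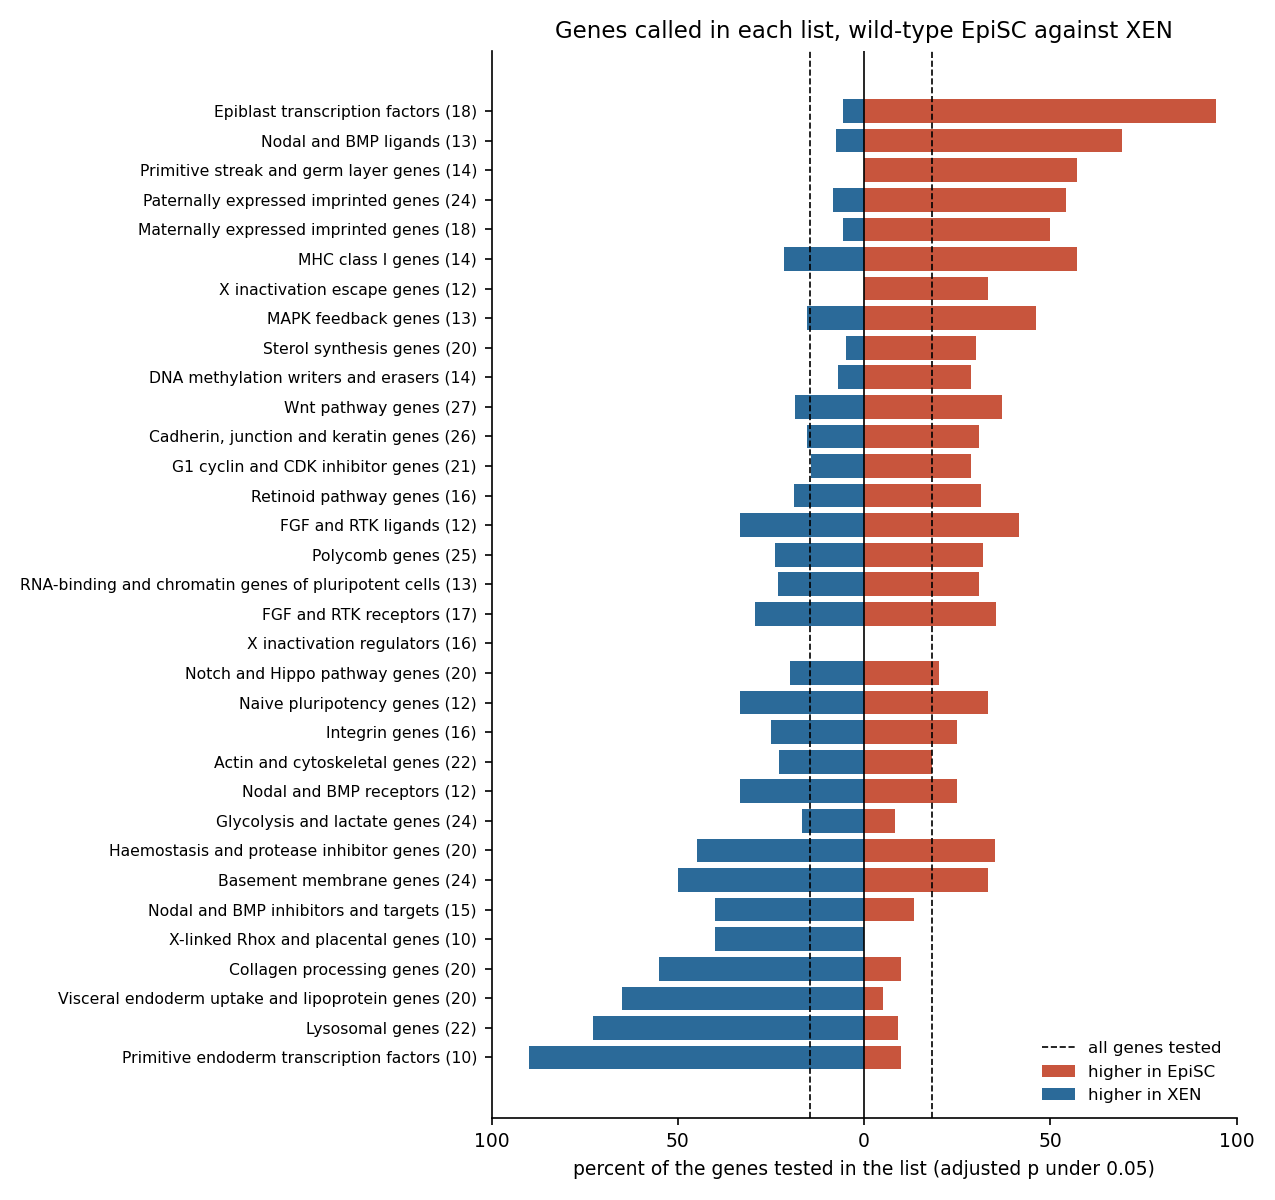
Percent of the tested members of each gene list that were called higher (red, right) and lower (blue, left) in EpiSC than in XEN, with the number tested in parentheses and dashed lines at the 18.2% and 14.6% of all genes tested. Epiblast factors and Nodal and BMP ligands extend mainly to the right, and lysosomal, uptake and collagen processing genes mainly to the left.

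Outside the lists, the genes with the largest differences included some that one cell type lacked altogether. On the XEN side, Hkdc1, a hexokinase-like gene, was at 639 and 672 CPM and had no count in EpiSC, at least 11709-fold lower (adjusted p = 3.69e-05). The water channel gene Aqp8 was at 649.8 and 569.9 CPM in XEN with no count in EpiSC, at least 10890-fold lower (adjusted p = 2.42e-05). The proteoglycan core gene Srgn was at 934 and 656 CPM in XEN and 0.0877 and 0 CPM in EpiSC (ratio 14183 (95% counting interval 4853 to 68778), adjusted p = 2.05e-05). All 3 were abundant in both XEN libraries. Gkn1, which encodes a gastrokine of the stomach lining, was at 55.8 and 14.8 CPM in XEN with no count in EpiSC, at least 631-fold lower (adjusted p = 0.000611). On the EpiSC side, Stmn2, a microtubule regulator of neurons, had no count in XEN and 155 and 96.7 CPM in EpiSC, at least 2467-fold higher (adjusted p = 3.35e-05). The adhesion gene Cadm1 had no count in XEN and 110.5 and 66.3 CPM in EpiSC, at least 1734-fold higher (adjusted p = 8.99e-05), and the fibrillin gene Fbn2 none in XEN and 76.5 and 71.7 CPM in EpiSC, at least 1453-fold higher (adjusted p = 3.96e-05). Housekeeping genes among the most abundant in both cell types included the elongation factor genes Eef1a1 (9606 and 14266 CPM in XEN, 6758 and 9411 CPM in EpiSC, adjusted p = 0.343) and Eef2 (4853 and 7582 CPM in XEN and 2603 and 3506 CPM in EpiSC, adjusted p = 0.111), and neither was called.

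Differences were spread over the chromosomes unevenly. Among the nuclear chromosomes, the median log2 change was 0.86 on chromosome 3, 0.75 on chromosome 6, 0.68 on chromosome 18 and 0.63 on the X, and -0.70 on chromosome 19, -0.54 on chromosome 16, -0.49 on chromosome 8 and -0.48 on chromosome 15. The 13 mitochondrial genes tested had a median of 1.63, with opposite signs in EpiSC library 1 (2.25) and library 2 (-0.55). On the X 29.5% of genes rose and 11.5% fell, and on chromosome 19 11.2% rose and 28.1% fell. By single EpiSC library against the XEN mean, on log2(CPM + 0.5) as for the mitochondrial genes, the X stood at 0.63 in library 1 and 0.33 in library 2, and chromosome 3 at 0.46 and 0.55. In dXist libraries the fitted median was 0.22 on the X and 0.76 on chromosome 3. The X and chromosome 3 were thus positive in all of these. For the other chromosomes listed, the dXist median was 0.20 on chromosome 6 and 0.38 on chromosome 18. It was -0.30 on chromosome 19, -0.75 on chromosome 16, -0.49 on chromosome 8 and 0.02 on chromosome 15. The X median was lower in EpiSC library 2 than in library 1. Its fitted median was also lower in dXist (0.22) than in the wild type (0.63). Median GC content was 45.7% for X-linked genes, 46.1% for chromosome 3 and 51.4% for chromosome 19, and its part in these medians was not tested. By gene class, 20.6% of protein-coding genes rose and 16.2% fell (median 0.06). The annotation classes TEC (tentative transcripts) and sense-intronic RNA had medians of 2.24 and 1.72, and these classes stood at 1.04 and 0.93 in EpiSC library 2 but at 0.15 and 0.08 in EpiSC library 1.

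**Figure D4:**
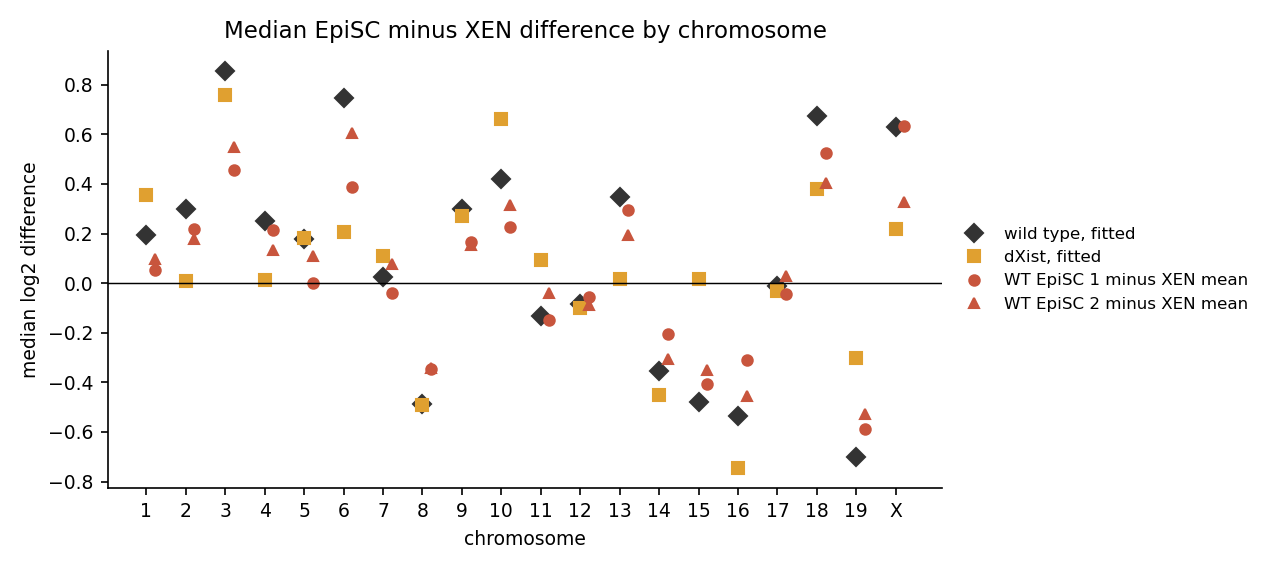
Median log2 difference between EpiSC and XEN per nuclear chromosome (the mitochondrial one is not drawn), given for each wild-type EpiSC library against the XEN mean and for the fitted wild-type and dXist comparisons. Chromosomes 3, 6 and 18 and the X are positive and 16 and 19 negative in each series, and the X is nearest to the positive end in EpiSC library 1.

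The same contrast was made between 2 dXist EpiSC and 3 dXist XEN libraries, which share no sample with the wild-type contrast. Both contrasts came from the same 9-library fit, with the same filter and the same estimate of spread, so their calls are not independent. EpiSC library 2 was rich in RNA without poly(A) tails in both genotypes, and the part of library type in the agreement was not tested. Xist itself was at 2.33, 1.22 and 5.12 CPM in dXist XEN and 0.472 and 0.297 CPM in dXist EpiSC, far below the wild-type libraries. The contrast called 4362 genes higher (22.6%) and 3393 lower (17.6%), together 40.1%, and the counts fell to 2385 and 1176 without dXist EpiSC library 2 and to 1422 lower without dXist EpiSC library 1. Of the 6339 genes called in the wild type 6137 (96.8%) had the same sign in dXist. Genes called in both with the same sign numbered 4682, which was 73.9% of wild-type calls and 60.4% of dXist calls, and 11 were called with opposite signs. Gata6 changed by -9.32 in the wild type and -9.67 in dXist, Pou5f1 by 8.31 and 10.60, and Col4a1 by -6.88 and -8.32 on the log2 scale. The basement membrane genes named above took 8.81% to 11.5% of these counts in dXist XEN and 0.164% and 0.176% in dXist EpiSC. The mesenchymal marker Dcn was at 0.493, 0.196 and 0.327 CPM in dXist XEN and 0.177 and 0.148 CPM in dXist EpiSC, without a call there (adjusted p = 0.293), and the test of the difference between genotypes was not passed (adjusted p = 0.0659). Dcn is 1 of the 17 fibroblast and mesenchymal markers tested, and the others are not given here for dXist.

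**Figure D5:**
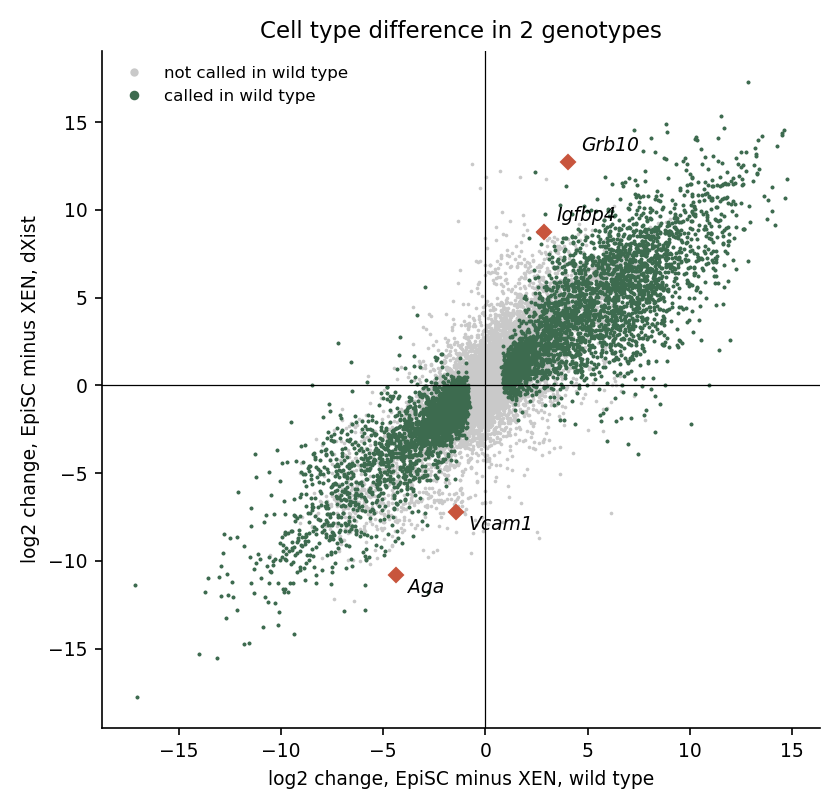
Fitted log2 difference between EpiSC and XEN in wild-type libraries (horizontal axis) against that in dXist libraries (vertical axis), 1 point per gene tested, with genes called in the wild type in green and the 4 genes of the interaction as red diamonds. Of the called genes 96.8% lie where both differences have the same sign.

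Whether the cell type difference itself differed between genotypes was tested as an interaction. It called 4 of 19328 genes (0.0207%), 2 with a more positive difference in dXist (0.0103%) and 2 with a more negative one (0.0103%), and 2102 genes had an unadjusted p under 0.05 (DESeq2 called 214 and 232). The count depended strongly on dXist XEN library 3, without which 425 were more positive and 325 more negative. Without other single libraries it was 1 to 9 more positive, with 9 without XEN library 1 and 4 without dXist XEN library 2, and 0 to 2 more negative. Grb10, an imprinted adaptor of receptor tyrosine kinases, was one of the 4, with a difference of 8.67 (SE 0.52, adjusted p = 0.000301). The wild-type contrast of Grb10 was 4.07, from 85.4 and 68.6 CPM in XEN to 1399 and 1180 CPM in EpiSC, and the dXist contrast 12.74, from 0.131, 0.118 and 0.181 to 1029 and 997 CPM.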

How the data were processed

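Bulk RNA sequencing libraries of XEN cells and EpiSC were compared. The deposited table holds whole-number read counts per gene, which the authors made against GRCm38/mm10 with featureCounts 2.0.1 after STAR 2.7.9a and FastQC, per the submitters' processing notes. Not given in the sources used here are the annotation release, the counting strand and how multimapping reads were treated. CPM are these counts per effective library size. Gene identifiers were matched to GENCODE vM21 for 38240 of 38377 genes (99.64%). The 68 histone and 2351 small noncoding and ribosomal RNA genes were left out. The list members Gdf1, Apoc2, Rhox3a, Tpbpa, Prl3d1 and Hbb-bt are not analysed here.

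The 9 untreated libraries (2 wild-type and 3 dXist XEN, 2 wild-type and 2 dXist EpiSC) were fitted together in R 4.3.3 with edgeR 4.0.16 (limma 3.58.1, filterByExpr, TMM, quasi-likelihood F test, 5 residual degrees of freedom) with 1 mean per group. Benjamini-Hochberg adjustment covered the 19328 genes tested, with a threshold of 0.05. Level folds are ratios of group means. Where a group had no count, a fold is a bound against 3 counts over the group, and with 1 to 3 counts a ratio carries an exact 95% interval. Bounds and intervals cover counting error only. The calculation was tested on simulated data. Alternatives were RLE scaling, DESeq2 1.42.0, no count filter, all rows, protein-coding genes, a library type term, the replicate block, the 4 wild-type libraries alone, and each library left out.

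The named genes were the 12 genes each way with the largest change at a mean of at least 10 CPM without overlap, the 10 most abundant per kb in each cell type, up to 6 called members of each of 40 lists by adjusted p, up to 3 called against a list's majority, up to 3 most abundant not called, the genes of the interaction, and Xist and Tsix. The comparison, its lists and members were chosen with earlier results of these data known. Promoter and start site positions came from RefSeq (GRCm38.p6). Some genes that the rule names are not reported here.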

Additional observations from a re-analysis of the deposited data

Results flagged for a closer look

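In 4 genes the difference between EpiSC and XEN itself differed between the dXist and wild-type libraries (edgeR interaction, dXist minus wild type on the log2 scale). Adjusted p-values are Benjamini-Hochberg values over the 19328 genes tested.

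Grb10 differed by 8.67 (SE 0.52, adjusted p = 0.000301). It lay at 85.4 and 68.6 CPM in wild-type XEN, at 0.131, 0.118 and 0.181 CPM in dXist XEN, at 1399 and 1180 CPM in wild-type EpiSC and at 1029 and 997 CPM in dXist EpiSC. The groups that stood apart were thus the XEN groups, and the EpiSC groups were close. The call was kept under every alternative run, with adjusted p at most 0.00581.

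Aga, which encodes a lysosomal aspartylglucosaminidase, differed by -6.39 (SE 0.57, adjusted p = 0.00636). It lay at 93.2 and 84.3 CPM in wild-type XEN, 116, 106 and 100.1 CPM in dXist XEN, 4.76 and 3.67 CPM in wild-type EpiSC and 0.0295 and 0.0989 CPM in dXist EpiSC. Here the EpiSC groups stood apart. The call was lost without wild-type XEN library 2 (adjusted p = 0.0702) or dXist EpiSC library 1 (0.125).

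Vcam1, an adhesion receptor gene, differed by -5.76 (adjusted p = 0.0475). It lay at 17.8 and 20.9 CPM in wild-type XEN, 41.5, 24.4 and 22.4 CPM in dXist XEN, 8.91 and 5.53 CPM in wild-type EpiSC and 0.236 and 0.148 CPM in dXist EpiSC. Igfbp4, which encodes a binding protein of insulin-like growth factors, differed by 5.90 (adjusted p = 0.0475), and lay at 10.2 and 10.5 CPM in wild-type XEN, 0.394, 0.118 and 0.798 CPM in dXist XEN, 69.3 and 80.5 CPM in wild-type EpiSC and 207 and 177 CPM in dXist EpiSC. Both calls sat just under the threshold. They were lost with all rows (adjusted p = 0.0608 for both) and with the library type term (0.0943 for Vcam1, 0.119 for Igfbp4). Without single libraries Vcam1 kept its call only when dXist XEN library 3 was left out, its other adjusted p-values being 0.0561 to 0.265, and those of Igfbp4 that missed the threshold were 0.0719 to 0.409.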

How the results depend on the processing

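Of 251 named genes called in the wild-type comparison, 189 kept their call in all 13 alternatives, 190 did so without each wild-type library in turn, and 0 reversed. Calls were lost mainly without single libraries (31 to 48 genes each) and with the library type term (15). Of 119 named genes not called, 41 were called under at least 1 alternative. Without single libraries the counts ranged from 1921 to 2911 higher and 1258 to 2243 lower in the wild type, and from 2385 to 4916 higher and 1176 to 3794 lower in dXist. For the interaction they ranged from 1 to 425 more positive and 0 to 325 more negative. The interaction counts also moved with DESeq2 (214 more positive, 232 more negative), no filter (281 and 371), all rows (1 and 1), protein-coding genes (6 more positive) and the library type term (1 and 1), and the cause was not tested. RLE scaling moved the median of all genes from 0.13 to 0.21. The library type term reduced some list counts. Uptake and lipoprotein genes lower in EpiSC went from 13 to 8, and Nodal and BMP inhibitors and targets from 6 to 3. MHC class I genes lower in EpiSC went from 3 to 1. Higher counts went from 5 to 3 for retinoid genes and from 4 to 2 for Notch and Hippo genes. Some small counts in other lists moved as well.

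The replicate numbers were not taken to pair XEN with EpiSC libraries: deviations of same-numbered wild-type XEN and EpiSC libraries correlated at 0.0674 across genes, and only 2 numbers were shared. Same-numbered wild-type and dXist EpiSC libraries correlated at 0.638, and there the number follows the library type, library 2 of each being rich in RNA without poly(A) tails, so number and type cannot be told apart in EpiSC. The replicate block called 4442 genes higher and 3635 lower in the wild type, 4988 and 4026 in dXist, and 484 more positive and 371 more negative in the interaction. With the 4 wild-type libraries alone it called 3621 and 3115, against 3626 and 2751 without the block. Depth limits low genes, since 3 counts correspond to 0.0877 to 0.155 CPM.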
